A study of Mus musculus with 12 samples.

Results

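The 5 genes described here are the nuclear factor I (NFI) genes Nfia, Nfib, Nfic and Nfix and the zinc finger gene Zbtb20. They were taken by symbol from a table of 47069 distinct Ensembl identifiers, and all 5 were found. Total RNA-seq had been carried out on cells sorted for green fluorescence from the Pdgfra-H2BGFP mouse line, in which a nuclear GFP is made from the Pdgfra locus. Pdgfra encodes a receptor for platelet-derived growth factor and marks oligodendrocyte precursor cells (OPCs). The study asked how these cells differ between ages and between regions of the central nervous system. There were 4 groups of 3 libraries, from brain (forebrain, per the methods) and from spinal cord, each taken from embryos at E13.5 and from pups at postnatal day 7 (P7). The labels name no other allele and no treatment in any group. Each library came from cells pooled over several animals of both sexes, so the tests measure the spread between pools. Papain was used to dissociate only the postnatal tissue, and the embryonic tissue was broken up mechanically, so age and dissociation cannot be told apart. Nuclear GFP can outlast Pdgfra transcription, and the sort could therefore keep cells that had moved on along the lineage.

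NFI proteins bind DNA as dimers through a conserved N-terminal domain, at a palindrome built from the 5-base motif TTGGC, and they both activate and repress genes. Nfia and Nfib are known for the switch from neuron to glia production in the embryonic brain and spinal cord, where Sox9 induces Nfia, and Nfia is also known to hold back oligodendrocyte differentiation. Nfix is known from the maturation of neural stem cells, Nfic from tooth root formation, and Zbtb20, a transcriptional repressor with a BTB domain, from hippocampal patterning and from promoting astrocyte formation.

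At P7 the family had a different make-up from that at E13.5 in both regions. Nfib fell by more than 2-fold, Nfia fell by less, and Nfix rose. The fall of Nfia in brain did not pass with other scalings, and the fall of Nfib in spinal cord lay close to the 2-fold line. Nfic had its highest mean in E13.5 spinal cord, and Zbtb20 in P7 brain. Between brain and spinal cord no NFI gene or Zbtb20 differed by more than 2-fold at either age.

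Promoter stretches are printed first to show the motif that the NFI proteins are known to bind. They are RefSeq windows on GRCm38.p6 that run from 250 bases before to 50 after a start, with each TTGGC, on either strand, in capitals. The window of Nfix is shown because Nfix is the NFI gene that rose and because 1 of its 4 windows holds 2 motifs, 1 on each strand. That of Nfia, which lies before the GENCODE span of the gene given further on, is shown as a window with 0 motifs. Those of Mmd2 and Fabp7 are shown because they are described NFI targets that rose at P7, as given further on.
Nfix, chr8:84772826-84773125, minus strand: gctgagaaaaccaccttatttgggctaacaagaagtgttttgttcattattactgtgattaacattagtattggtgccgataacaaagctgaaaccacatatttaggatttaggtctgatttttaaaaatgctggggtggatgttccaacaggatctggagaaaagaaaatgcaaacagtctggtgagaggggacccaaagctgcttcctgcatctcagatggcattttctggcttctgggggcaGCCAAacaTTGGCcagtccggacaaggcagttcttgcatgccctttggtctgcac
Nfia, chr4:97581693-97581992, plus strand: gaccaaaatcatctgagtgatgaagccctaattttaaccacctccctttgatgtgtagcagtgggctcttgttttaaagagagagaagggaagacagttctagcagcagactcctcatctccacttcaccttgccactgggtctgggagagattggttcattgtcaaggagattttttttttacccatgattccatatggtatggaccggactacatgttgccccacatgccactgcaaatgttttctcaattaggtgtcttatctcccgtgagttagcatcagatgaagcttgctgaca
Mmd2, chr5:142608703-142609002, minus strand: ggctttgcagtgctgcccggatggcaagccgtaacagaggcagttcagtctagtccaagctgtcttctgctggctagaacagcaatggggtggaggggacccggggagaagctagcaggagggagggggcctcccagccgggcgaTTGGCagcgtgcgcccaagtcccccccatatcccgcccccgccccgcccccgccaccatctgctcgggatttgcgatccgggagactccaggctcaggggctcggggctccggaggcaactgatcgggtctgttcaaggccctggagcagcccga
Fabp7, chr10:57784673-57784972, plus strand: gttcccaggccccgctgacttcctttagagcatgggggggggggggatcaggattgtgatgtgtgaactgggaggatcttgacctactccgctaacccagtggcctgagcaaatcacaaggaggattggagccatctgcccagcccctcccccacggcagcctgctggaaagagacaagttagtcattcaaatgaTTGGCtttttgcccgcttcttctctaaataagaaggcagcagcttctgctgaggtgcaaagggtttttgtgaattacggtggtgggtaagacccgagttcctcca

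TTGGC on either strand was present in 46.7% of 32851 RefSeq promoter windows of that length, so its presence is common. The whole palindrome, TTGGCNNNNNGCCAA, was found in 12 of those windows (0.0365%) and in none of the windows named here. Windows were found for 4 of the 5 genes and for 7 of 10 described NFI targets. The single windows of Nfia, Nfic and Zbtb20 held 0 motifs, and the other 3 windows of Nfix held 0, 1 and 1. Among the targets Ezh2 held 3, Insc, Zcchc24, Mmd2 and Fabp7 held 1 each, and Gfap and Slc1a3 held 0. These are matches of letters, not mapped binding.

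Values are read counts scaled to a common library size by the authors (CPM). Differences are on the log2(CPM + 0.5) scale with their standard error (SE) from a limma fit to all 12 libraries. The fit gave each gene 1 spread shared by the 4 groups, so standard errors at P7 also carry the scatter at E13.5. A gene was called where its Benjamini-Hochberg adjusted p over 18319 tested genes was under 0.05 and its difference exceeded 2-fold. All 5 genes passed the filter on low values and had at least 171 reads in every library. Libraries held between 12566345 and 38790312 reads, and all P7 libraries were deeper than all E13.5 libraries. E13.5 spinal cord replicate 3 stood apart, with 40.9% of its reads in protein-coding genes against 82.4% to 91.1% in the others, and 31.1% of them in the noncoding gene Gm42418. Replicates 1 and 2 of each P7 group were closer to each other than either was to replicate 3, with SDs of log2 ratios over deeply covered genes of 0.059 and 0.066 against 0.173 to 0.215, and whether they are independent is not known. The deposited scaling put P7 brain libraries low. The median difference of all tested genes was -0.19 for P7 minus E13.5 in brain, 0.12 for the same in spinal cord, 0.05 for brain minus spinal cord at E13.5 and -0.19 for the same at P7. For the change of that region difference between the ages it was -0.24. After TMM rescaling these medians were -0.02, 0.12, 0.05, -0.02 and -0.07.

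The cells carried the marks of the sort. The 5 OPC markers Pdgfra, Cspg4, Olig1, Olig2 and Sox10 together held 740.9 to 1232 CPM in brain and 486 to 715 in spinal cord at E13.5, against 5069 to 5953 and 4793 to 4869 at P7. The 4 markers of differentiating oligodendrocytes Mbp, Mag, Mog and Mobp summed to at most 35.2 CPM at E13.5, to 637 to 1686 in P7 brain and to 6950 to 10770 in P7 spinal cord. Other cell types also had transcripts. The 6 pericyte and leptomeningeal markers summed at E13.5 to 2581 to 3704 CPM (brain) and 5333 to 5791 CPM (spinal cord), and at P7 to 693 to 917 and 645 to 1302. The 6 neuron markers summed to 684 to 863 CPM over the E13.5 libraries and 366 to 454 over the P7 libraries. The 7 astrocyte and radial glia markers summed at E13.5 to 1300 to 1657 CPM (brain) and 1220 to 1280 CPM (spinal cord). At P7 they summed to 1520 to 1825 and 976 to 1110, with members that moved in opposite directions. At P7 5 of the 7 were called higher in brain and 4 in spinal cord, with Aqp4 up by 5.36 and 5.63 and Slc1a2 by 2.96 and 1.53 (log2), while Gja1 fell by 2.73 and 3.86. Microglia (5), endothelial (4) and erythroid (5) markers summed to at most 70.0, 43.8 and 139.9 CPM in any library, and of all these markers only Hbb-y was at 0 throughout a group, in both P7 groups. In such bulk samples a lower share of cells with a transcript and less of it per cell cannot be told apart.

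**Figure D1:**
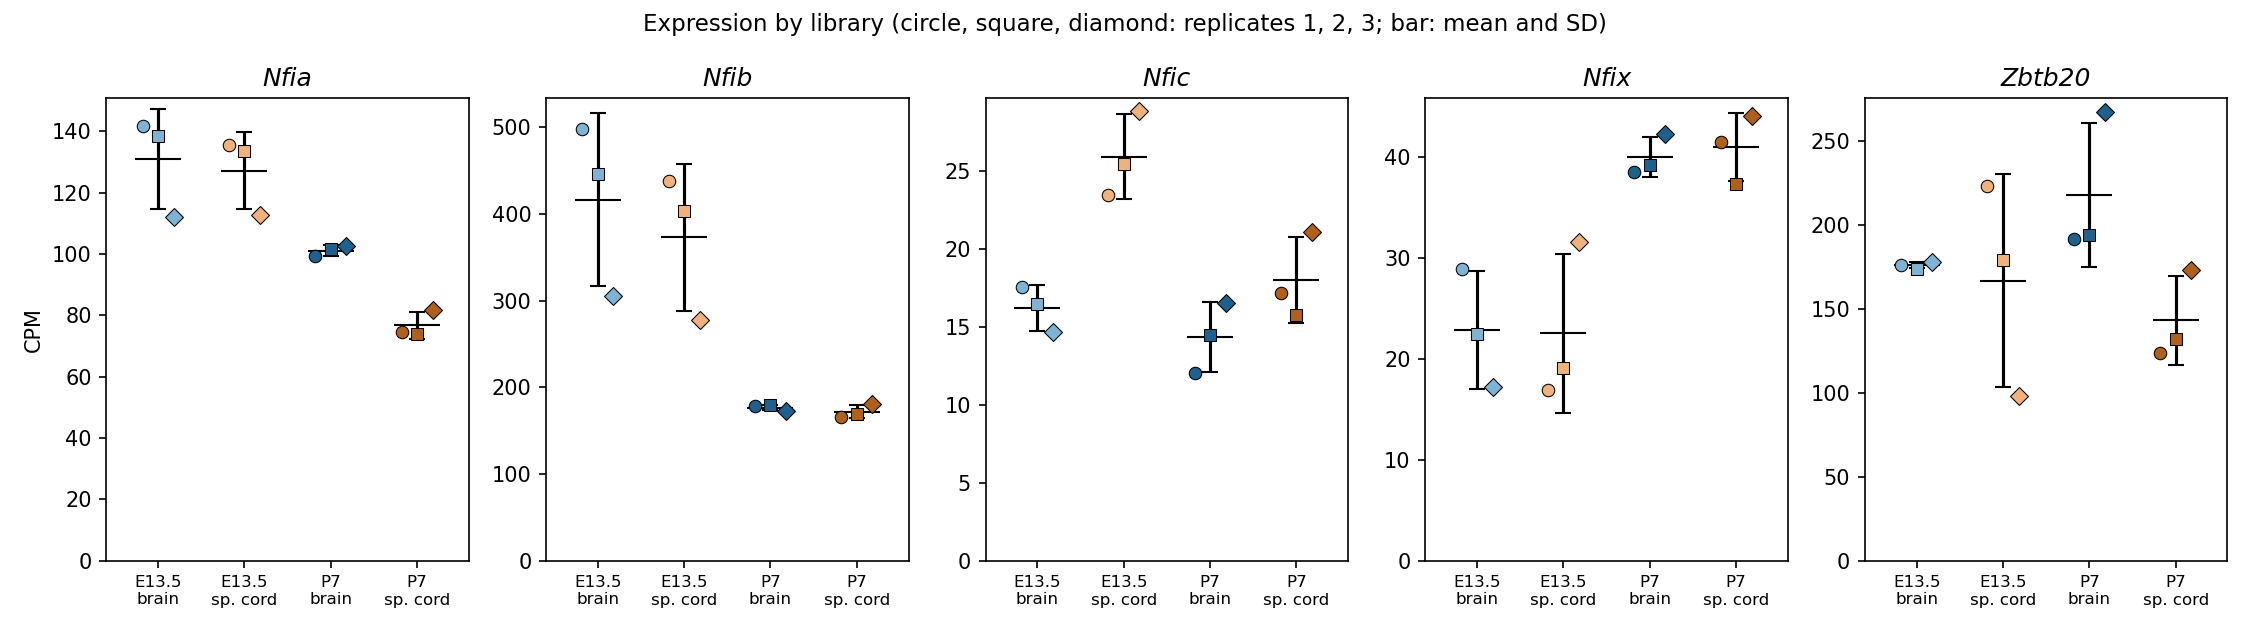
Expression of the 5 genes in CPM (vertical axes, each from 0) in each library of the 4 groups. Symbols are replicates 1, 2 and 3, and bars are the mean and SD (n = 3). All P7 libraries lie below all E13.5 libraries for Nfia and Nfib and above them for Nfix.

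Nfib had the highest CPM per kb of the NFI genes in every group. It lies on chromosome 4 (ENSMUSG00000008575, 82290173 to 82705750, minus strand, GRCm38). The 3 E13.5 brain libraries had 498, 446 and 305 CPM, and the 3 P7 brain libraries had 178, 179 and 173. The 3 E13.5 spinal cord libraries had 438, 403 and 277 CPM, and the 3 P7 spinal cord libraries had 166, 169.5 and 180.4. The ages did not overlap in either region, the P7 libraries lay close together, and replicate 3 was the lowest at E13.5 in both regions. The share of all tested genes whose libraries separated in this way is not given. Here and for the other genes below, separation is therefore only a description. Nfib fell by 1.21 ± 0.19 in brain (log2, SE, limma, Benjamini-Hochberg adjusted p 1.13e-04) and by 1.09 ± 0.19 in spinal cord (adjusted p 1.94e-04), from group means of 416 ± 99.8 and 373 ± 84.5 CPM to 177 ± 3.14 and 172 ± 7.54 CPM (SD, n = 3). The fall in spinal cord lay close to the 2-fold line. It was -0.96 without E13.5 spinal cord replicate 1 and -0.94 with GC content and transcript length regressed out, and was not called in either case.

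Nfia encodes the factor whose onset in the spinal cord is known to accompany the start of gliogenesis. It lies on the same chromosome (ENSMUSG00000028565, 97772734 to 98118874, plus strand). In brain it had 142, 139 and 112 CPM at E13.5 and 99.3, 102 and 103 at P7. In spinal cord it had 136, 133 and 113 CPM at E13.5 and 74.5, 74.0 and 81.7 at P7. The ages were separate in both regions, and the P7 spinal cord libraries were the lowest of all 12. Nfia fell in spinal cord by 0.72 ± 0.10 (log2, SE, limma, Benjamini-Hochberg adjusted p 4.90e-05), which is 0.85 below the median of all genes. In brain the difference of -0.36 ± 0.10 passed as well (adjusted p 0.00959), but it lay only 0.17 below the median of all genes. It was -0.17 with TMM or median-ratio rescaling, -0.16 with limma-voom, -0.17 with edgeR, -0.18 with DESeq2 and -0.15 with GC content and transcript length regressed out, and passed in none of these 6.

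Nfix moved in the other direction. It lies on chromosome 8 (ENSMUSG00000001911, 84699876 to 84800344, minus strand). The 3 E13.5 brain libraries had 28.9, 22.5 and 17.2 CPM, and the 3 P7 brain libraries had 38.5, 39.2 and 42.2. The 3 E13.5 spinal cord libraries had 16.9, 19.1 and 31.6 CPM, and the 3 P7 spinal cord libraries had 41.5, 37.4 and 44.1. All P7 libraries were above all E13.5 libraries, the nearest E13.5 library being spinal cord replicate 3. Nfix rose by 0.82 ± 0.21 in brain (log2, SE, limma, Benjamini-Hochberg adjusted p 0.00491) and by 0.90 ± 0.21 in spinal cord (adjusted p 0.00227), both under the 2-fold line. Relative to the median of all genes these were 1.01 and 0.78. In brain the rise passed the 2-fold line with TMM (1.01) or median-ratio rescaling (1.01), with limma-voom (1.03) and edgeR (1.01), and without E13.5 brain replicate 1 (1.01). In spinal cord it passed that line without E13.5 spinal cord replicate 3 (1.17).

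Nfic had the lowest level per length of the family in E13.5 brain and in both P7 groups. It lies on chromosome 10 (ENSMUSG00000055053, 81396186 to 81455635, minus strand). In brain it had 17.6, 16.5 and 14.6 CPM at E13.5 and 12.03, 14.4 and 16.5 at P7. In spinal cord it had 23.5, 25.4 and 28.9 CPM at E13.5 and 17.2, 15.8 and 21.1 at P7. The E13.5 spinal cord libraries were the 3 highest of the 12, and the brain libraries of both ages overlapped. Nfic fell with age in spinal cord by 0.52 ± 0.14 (log2, SE, limma, Benjamini-Hochberg adjusted p 0.00605). In brain its difference was -0.18 ± 0.14 (adjusted p 0.287), at the median of all genes. The sign of the brain value changed with TMM (0.0033) and median-ratio rescaling (0.0049).

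Zbtb20 lies on chromosome 16 (ENSMUSG00000022708, 42875881 to 43642602, plus strand). Brain had 176, 174 and 178 CPM at E13.5 and 192, 194 and 267 at P7. Spinal cord had 223, 179 and 98.03 CPM at E13.5 and 124, 132 and 173 at P7. All P7 brain libraries were above all E13.5 brain libraries, whereas the ages overlapped in spinal cord, where E13.5 replicate 3 was the lowest of the 12 libraries and E13.5 replicate 1 the highest after P7 brain replicate 3. The difference with age was 0.29 ± 0.25 in brain (log2, SE, limma, Benjamini-Hochberg adjusted p 0.326, 95% interval -0.25 to 0.82) and -0.15 ± 0.25 in spinal cord (adjusted p 0.593, interval -0.69 to 0.38), and neither passed. The spinal cord value depended on single libraries and on the fit with GC content and transcript length, which were regressed out together. It was -0.50 and passed without E13.5 spinal cord replicate 3, 0.10 without replicate 1, and 0.65, passing, with GC content and transcript length regressed out. The brain value was 0.75 and passed under that last setting, and it was 0.13 without P7 brain replicate 3 and 0.48 with TMM rescaling, passing in neither.

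GC content moved with these differences in E13.5 spinal cord replicate 3. The longest transcripts of Nfia, Nfib and Zbtb20 have 42.7%, 43.3% and 43.0% GC, and those of Nfic and Nfix have 57.4% and 57.1%. In that library the deviations from the group mean (log2) were -0.17 for Nfia, -0.40 for Nfib and -0.68 for Zbtb20, and 0.16 for Nfic and 0.53 for Nfix. Over all tested genes its median deviation was -0.15 for 5413 genes under 45% GC, -0.04 for 9099 genes between 45% and 55%, and 0.17 for 3712 genes over 55%. Without this library the fall of Nfib and the rise of Nfix in spinal cord were larger, at -1.29 and 1.17. The age differences of all genes also varied with GC content. In brain their medians were -0.29 under 45% GC, -0.18 between 45% and 55%, and -0.05 over 55%. In spinal cord they were -0.04, 0.19 and 0.16. With GC content and transcript length regressed out, Nfib and Nfix passed the adjusted p for age in both regions. The part of GC content alone in the age changes was not tested.

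**Figure D2:**
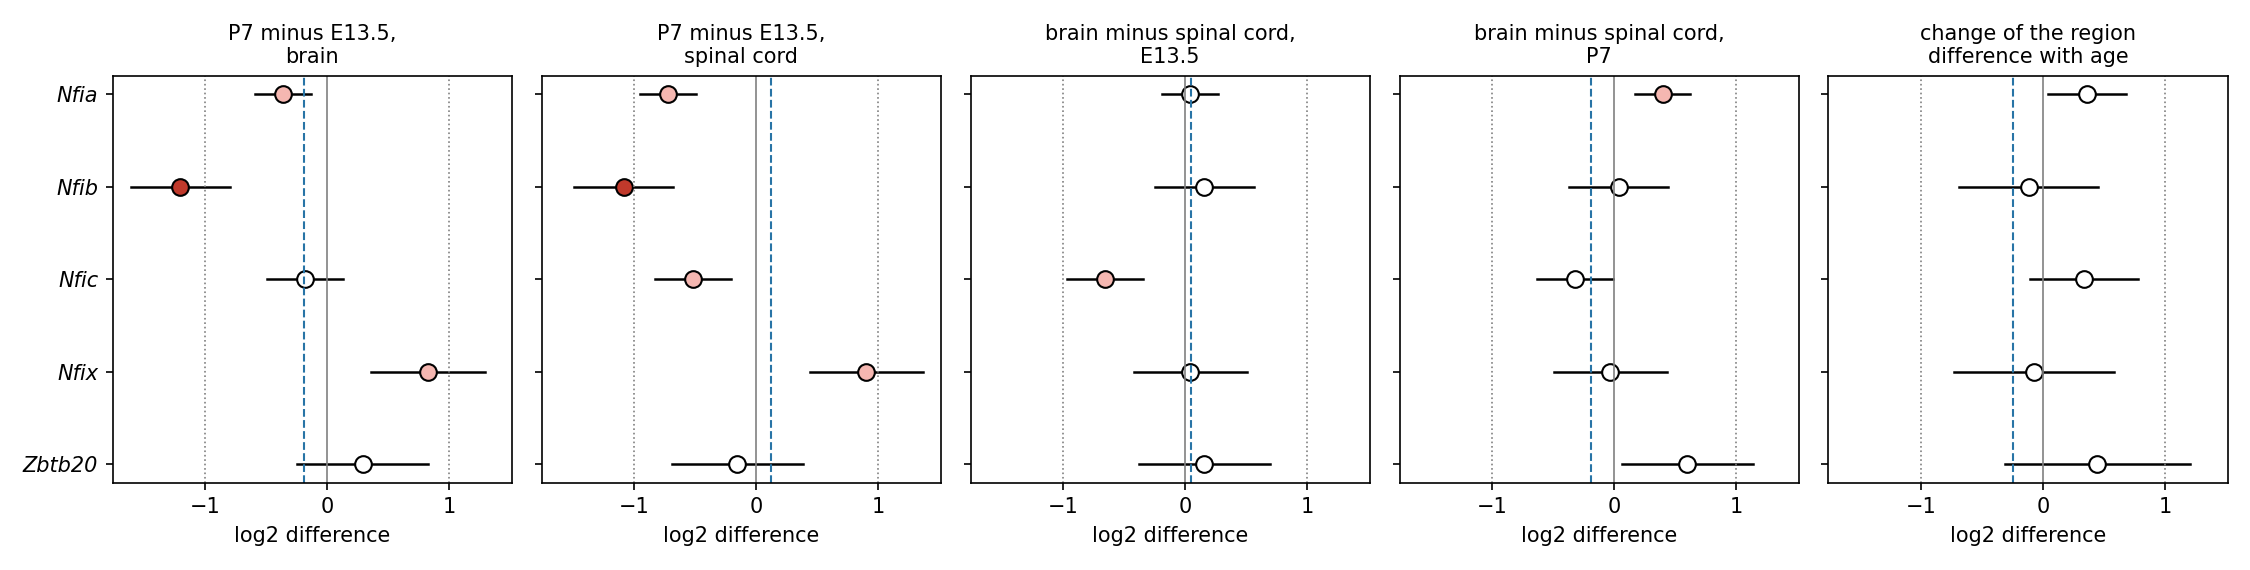
Differences of the 5 genes on the log2(CPM + 0.5) scale in the 5 comparisons, with 95% intervals from limma. Dark points were called, pale red points had an adjusted p under 0.05 without exceeding 2-fold (dotted lines at 1 and -1), and white points did neither. The dashed line is the median of all 18319 tested genes. Nfib is the only dark point, in both age panels.

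By these rules 1 of the 5 genes, Nfib, was called for age in brain, where 27.7% of all tested genes were called, and the same 1 in spinal cord, where 35.1% were. With the adjusted p alone, 3 of 5 passed in brain (Nfia, Nfib, Nfix) against 61.3% of all genes, and 4 of 5 in spinal cord (all but Zbtb20) against 70.0%. For 5 genes these counts are near the shares of all genes and single the 5 out in neither region. In size, the fall of Nfib in brain exceeded, without regard to sign, that of 78.2% of tested genes and the rise of Nfix that of 65.4%. In spinal cord these shares were 68.0% and 60.3%. Beside the change with age stand the marker levels given above. Pericyte and leptomeningeal markers were called lower at P7 for 5 of 6 in brain (Rgs5 was higher, by 1.16) and 6 of 6 in spinal cord. Neuron markers were called lower for 2 of 6 in brain, where Snap25 rose by 0.89, and for 3 of 6 in spinal cord, where Elavl3 rose by 1.48. OPC, differentiating oligodendrocyte and most astrocyte markers were called higher, and the part of these cell types in the fall of Nfia and Nfib and the rise of Nfix was not tested.

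Within the family, Nfib had a lower share and Nfix a higher share at P7 than at E13.5, which is a description with no test. On the scale of CPM per kb of exonic sequence, the 4 NFI genes summed at E13.5 to 45.4 ± 9.13 (brain) and 43.6 ± 5.32 (spinal cord), and to 28.7 ± 0.59 and 26.8 ± 1.68 at P7 (SD, n = 3). Nfib made up 60.9% and 56.7% of that sum in E13.5 brain and spinal cord, and 41.2% and 42.9% at P7. Nfix made up 7.43%, 6.36% and 6.62% in the 3 E13.5 brain libraries and 4.82%, 5.70% and 11.4% in the 3 E13.5 spinal cord libraries. At P7 it made up 18.7%, 18.5% and 19.7% in brain and 21.6%, 19.9% and 20.9% in spinal cord. The share of Nfix in every P7 library was thus above that in every E13.5 library, and the share of Nfib was below. The log2 ratio of Nfix to Nfib CPM, which does not depend on library scaling, ran from -4.70 to -3.14 at E13.5 and from -2.21 to -1.9995 at P7. The value of -3.14 was that of E13.5 spinal cord replicate 3. Nfix has 57.1% GC and Nfib 43.3%, so a shift with GC content enters this ratio and the shares. The ratio of Nfix to Nfia was -2.54 ± 0.22 and -2.55 ± 0.63 in the E13.5 groups, and reached -1.34 ± 0.05 (brain) and -0.91 ± 0.07 (spinal cord) at P7 (SD, n = 3). Only E13.5 spinal cord replicate 3, at -1.84, came near the P7 values.

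**Figure D3:**
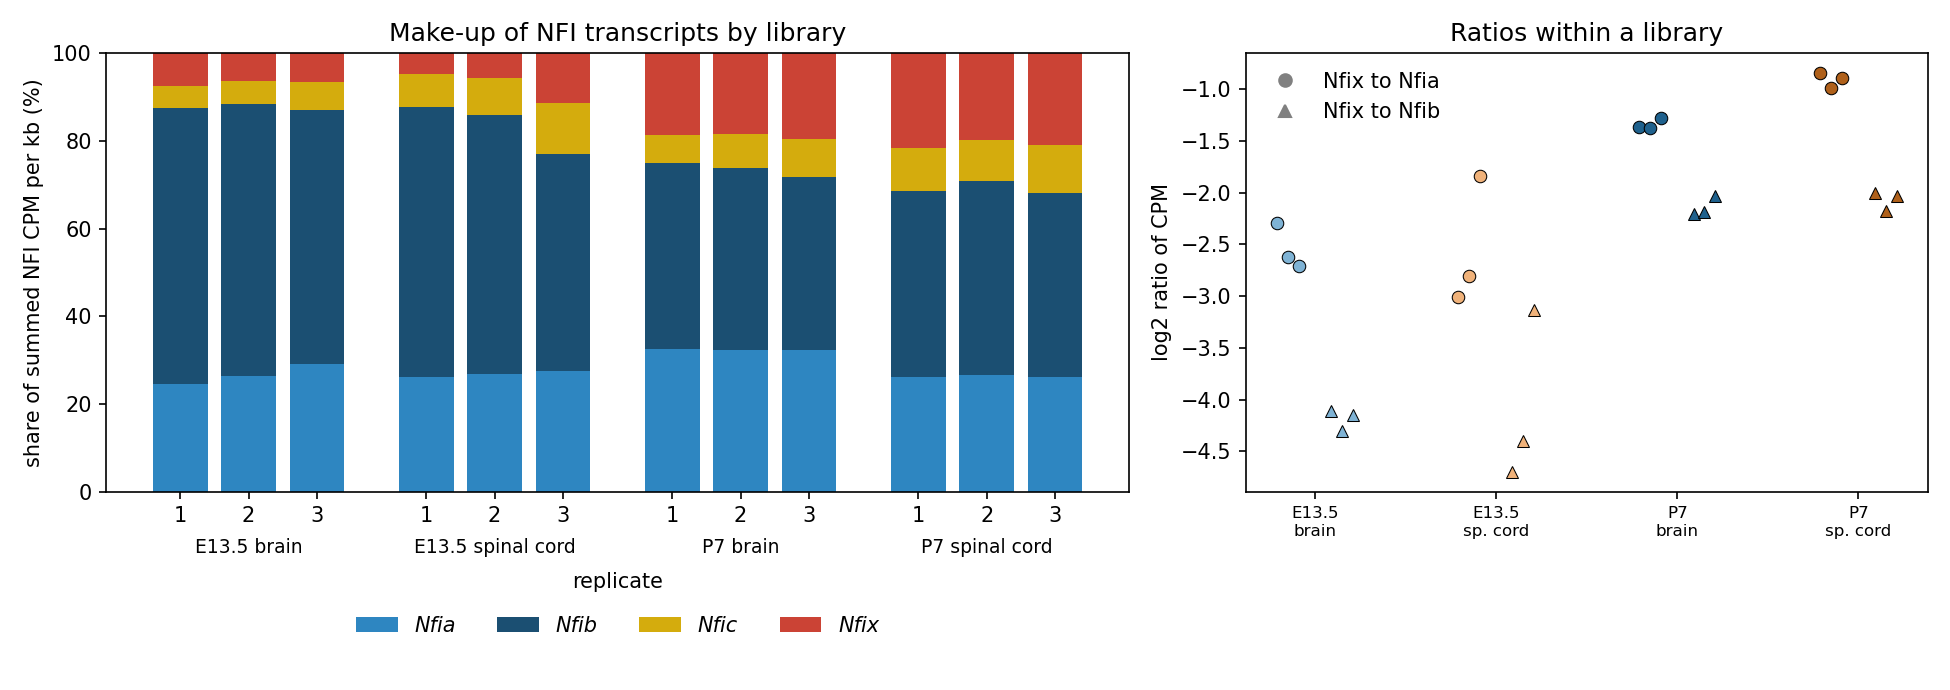
Left, share of Nfia, Nfib, Nfic and Nfix in the summed NFI CPM per kb (percent) in each of the 12 libraries. Right, log2 ratio of Nfix to Nfia (circles) and of Nfix to Nfib (triangles) in each library. The Nfix share is between 18.5% and 21.6% in the P7 libraries and at most 11.4% in the E13.5 libraries.

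Per kb, Nfib stood at percentiles 92.8 and 92.7 among the tested genes in E13.5 brain and spinal cord, and at 78.5 and 73.3 at P7. Nfia went from 78.2 and 78.8 to 72.7 and 60.7, and Nfix from 40.8 and 39.4 to 58.2 and 54.9. Nfic stayed between 35.5 and 46.1, and Zbtb20, with 30730 bases of exonic sequence the longest of the 5, lay between 50.1 and 65.8. In order of group means, Nfia ran from P7 spinal cord through P7 brain to the E13.5 groups, and its neighbours overlapped only between the E13.5 groups. For Nfib and Nfix the regions overlapped at each age. For Nfic only E13.5 spinal cord was separate from its neighbour, and for Zbtb20 only P7 brain.

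Regional differences of these genes were under 2-fold. Without regard to sign, that of Nfic at E13.5 exceeded 81.2% of tested genes, and those of Zbtb20 and Nfia at P7 exceeded 84.4% and 67.8%. At E13.5 0 of 5 genes were called between brain and spinal cord, where 8.71% of all genes were called. By limma 1 of 5, Nfic, had an adjusted p under 0.05, against 32.6% of all genes, and 1 had an unadjusted p under 0.05. The share of all genes with an unadjusted p under 0.05 is not given here. By limma-voom, edgeR and DESeq2 0 were called as well. Nfic was lower in brain, with a difference of -0.66 ± 0.14 (log2, SE, limma, Benjamini-Hochberg adjusted p 0.0037), and every spinal cord library at E13.5 was above every brain library. It was -0.58 without E13.5 spinal cord replicate 3 and -0.42 with GC content and transcript length regressed out, and passed in both. Pericyte and leptomeningeal marker sums were also higher in E13.5 spinal cord. Of these 6 markers 3 (Col1a1, Col1a2 and Rgs5) were called higher there, where 8.71% of all genes were called in either direction. Lum was higher in brain, by 0.75, under the 2-fold line. The part of these cells in the difference of Nfic was not tested. The differences of the other 4 ranged from 0.04 for Nfia (95% interval -0.19 to 0.27) to 0.16 for Zbtb20 (-0.38 to 0.69), and with median-ratio rescaling those of Nfia and Nfix turned to -0.06 and -0.05. With GC content and transcript length regressed out, the region difference of Zbtb20 at E13.5 also passed the adjusted p.

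At P7 0 of 5 genes were called for region, by limma, limma-voom, edgeR and DESeq2 alike, where 6.62% of all genes were called by limma. With the adjusted p alone 1 of 5 passed in limma, against 30.0% of all genes, 3 of 5 had an unadjusted p under 0.05 (Nfia, Nfic, Zbtb20), and 2 of 5 passed the adjusted p with each of limma-voom, edgeR and DESeq2. Shares of all genes are not given for the unadjusted p or for the adjusted p of the last 3 tools. Those counts therefore do not single the genes out. Nfia was higher in brain by 0.40 ± 0.10 (log2, SE, limma, Benjamini-Hochberg adjusted p 0.0133), with all 3 brain libraries above all 3 spinal cord libraries. It no longer passed without P7 spinal cord replicate 1 (0.38) or 2 (0.37), or with replicates 1 and 2 of each P7 group averaged into 1 (0.38). It was larger, and passed, with TMM (0.59) and median-ratio rescaling (0.63), limma-voom (0.62), edgeR (0.62) and DESeq2 (0.63). Zbtb20 was 0.60 higher in brain (SE 0.25, limma, Benjamini-Hochberg adjusted p 0.0857, 95% interval 0.07 to 1.14), and again all brain libraries were above all spinal cord libraries. This difference passed with TMM (0.79) and median-ratio rescaling (0.84), limma-voom (0.82), edgeR (0.83) and DESeq2 (0.84), with GC content and transcript length regressed out (0.59), and without E13.5 spinal cord replicate 1 or 3 (0.60). It lost even an unadjusted p under 0.05 without P7 brain replicate 3 (0.45), without P7 spinal cord replicate 1 (0.51) or 2 (0.55), and with replicates 1 and 2 of each P7 group averaged (0.61). It was the largest difference in the direction of brain among 33 tested Zbtb genes. Nfic differed by -0.32 (adjusted p 0.111), Nfib by 0.04 (95% interval -0.37 to 0.44) and Nfix by -0.03 (-0.50 to 0.43), the last turning to 0.16 with TMM rescaling. Markers of differentiating oligodendrocytes were far higher in P7 spinal cord. Astrocyte and radial glia marker sums were higher in P7 brain, at 1520 to 1825 CPM against 976 to 1110 in P7 spinal cord. Of these 7 markers 2, Slc1a3 and Gja1, were called higher in brain and 0 lower. Gfap differed in the other direction (-0.64) and did not pass. The part of these cell types in the levels of Nfia and Zbtb20 was not tested.

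The difference itself between the age changes of the regions was also tested. Of the 5 genes 0 were called, where 16.3% of all genes were, and 0 passed the adjusted p in limma, where 39.8% of all genes did. With an unadjusted p under 0.05 there was 1, Nfia, and with the adjusted p there was 1 in limma-voom (Nfia), 2 in edgeR (Nfia and Nfic) and 3 in DESeq2 (those and Zbtb20). Here too the shares of all genes by these measures are not given, so these counts are descriptions. The value for Nfia was 0.36 ± 0.15 (log2, SE, limma, Benjamini-Hochberg adjusted p 0.072) for the brain change minus the spinal cord change. It was 0.55 with TMM rescaling, 0.69 with median-ratio rescaling, 0.38 with GC content and transcript length regressed out, 0.44 without E13.5 spinal cord replicate 3 and 0.42 without E13.5 brain replicate 1, and passed in each of these. It lost even an unadjusted p under 0.05, at 0.25 to 0.36, without E13.5 brain replicate 3, E13.5 spinal cord replicate 1 or 2, P7 brain replicate 2 or 3, or P7 spinal cord replicate 1 or 2, and with P7 replicates 1 and 2 averaged. Zbtb20 had 0.44 ± 0.35 (adjusted p 0.337), 0.78 without E13.5 spinal cord replicate 3, where it passed, 0.19 without E13.5 spinal cord replicate 1, and 0.10 with GC content and transcript length regressed out. For Nfib and Nfix the values were -0.12 (95% interval -0.69 to 0.45) and -0.08 (-0.73 to 0.58), and both signs turned with TMM rescaling, to 0.07 and 0.11.

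Of 10 genes listed as partners or upstream regulators of NFI factors, 2 rose and 4 fell by the called rule in brain, where 27.7% of all genes were called, and 3 rose and 3 fell in spinal cord, where 35.1% were. The median difference was -0.47 in brain and -0.01 in spinal cord, beside -0.19 and 0.12 over all genes. Sox9, the factor known to induce Nfia, did not pass for age (0.08 ± 0.24 in brain and 0.24 ± 0.24 in spinal cord, limma, Benjamini-Hochberg adjusted p 0.79 and 0.371). Brain had more Sox9 than spinal cord, by 1.58 ± 0.24 at E13.5 and 1.42 ± 0.24 at P7 (adjusted p 2.77e-04 and 8.13e-04). The E13.5 means were 48.1 ± 16.0 CPM for brain and 15.3 ± 4.02 CPM for spinal cord (SD, n = 3). Nfia differed between the regions by 0.40 at P7 and 0.04 at E13.5.

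Stat3, which carries gliogenic cytokine signals, rose in both regions, by 1.62 and 1.76. Hes5, a target of Notch, rose by 1.41 and 1.48, and Pou3f2, a POU factor of neural progenitors, rose by 1.57 in spinal cord and by 0.65 in brain, the latter under the 2-fold line. Nr2f2, an orphan nuclear receptor, fell by 2.44 in brain and 2.58 in spinal cord, and Nr2f1, its relative, known with it from the timing of gliogenesis, fell by 1.13 in brain and differed by -0.33 in spinal cord, where it did not pass. Lin28b and Hmga2, which mark early fetal progenitors, fell most in brain among the 10. Hmga2 went down from 54.7 ± 1.62 to 2.56 ± 0.18 CPM in brain, and in spinal cord from 29.6 ± 8.41 to 6.51 ± 0.91 CPM (SD, n = 3), which is -4.17 and -2.08. Lin28b fell by 3.96 and 2.38. Both falls were larger in brain by a test of the difference, with -2.10 ± 0.24 for Hmga2 and -1.58 ± 0.29 for Lin28b (log2, SE, limma, Benjamini-Hochberg adjusted p 4.21e-05 and 0.00109).

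Of 10 described NFI targets, 4 rose and 1 fell by the called rule in brain, and 5 rose and 1 fell in spinal cord, beside the same 27.7% and 35.1% of all genes called. Their median difference was 0.49 in brain and 0.82 in spinal cord, beside -0.19 and 0.12 over all genes. Of the 10, 3 (Gfap, Slc1a3 and Fabp7) also stand on the list of astrocyte and radial glia markers. Mmd2, a membrane gene known to be induced by Nfia and Sox9, went from 15.4 ± 1.41 to 141 ± 11.98 CPM in brain and, in spinal cord, from 7.13 ± 2.53 to 181 ± 18.4 CPM (SD, n = 3). Its rise was 3.16 ± 0.20 in brain and 4.62 ± 0.20 in spinal cord (log2, SE, limma, Benjamini-Hochberg adjusted p 5.08e-08 and 1.39e-09). Fabp7, which encodes a fatty acid binding protein of radial glia, rose by 1.07 and 1.42. Gfap, the intermediate filament gene of astrocytes, was at or below 0.44 CPM in the E13.5 libraries and averaged 10.6 ± 2.62 CPM (brain) and 16.9 ± 4.93 CPM (spinal cord) at P7 (SD, n = 3), a rise of 4.11 and 4.55. Insc, which encodes a spindle orientation protein known as a target of Nfix, rose by 2.01 and 4.33. The E13.5 levels of Gfap and, in brain, of Insc were near the floor of 3 reads, so the sizes of these rises depend on the pseudocount.

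The remaining targets went in both directions. Zcchc24 rose in both regions, by 0.92 (brain) and 0.59 (spinal cord), under the 2-fold line. Bbx fell by 0.77 in brain, under that line, and differed by -0.13 in spinal cord, where it did not pass. Slc1a3, the glutamate transporter of astrocytes and radial glia, did not pass in brain (0.06, limma, Benjamini-Hochberg adjusted p 0.735) and fell by 1.11 in spinal cord. Apcdd1, a Wnt inhibitor known to be induced by Nfia and Sox9, differed by -0.04 in brain and fell by 0.86 in spinal cord. Ezh2, the Polycomb methyltransferase gene known to be repressed by Nfib, fell by 1.77 in brain and by 0.90 in spinal cord, where it was under the 2-fold line. Hes1, a Notch target known to be repressed by Nfia, rose by 1.04 in spinal cord and differed by -0.32 in brain, where it did not pass. The oligodendrocyte transcription factors Olig1, Olig2, Sox8, Sox10 and Nkx2-2 were all called higher at P7, by 2.66 to 4.71 in brain and 4.15 to 5.38 in spinal cord.

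**Figure D4:**
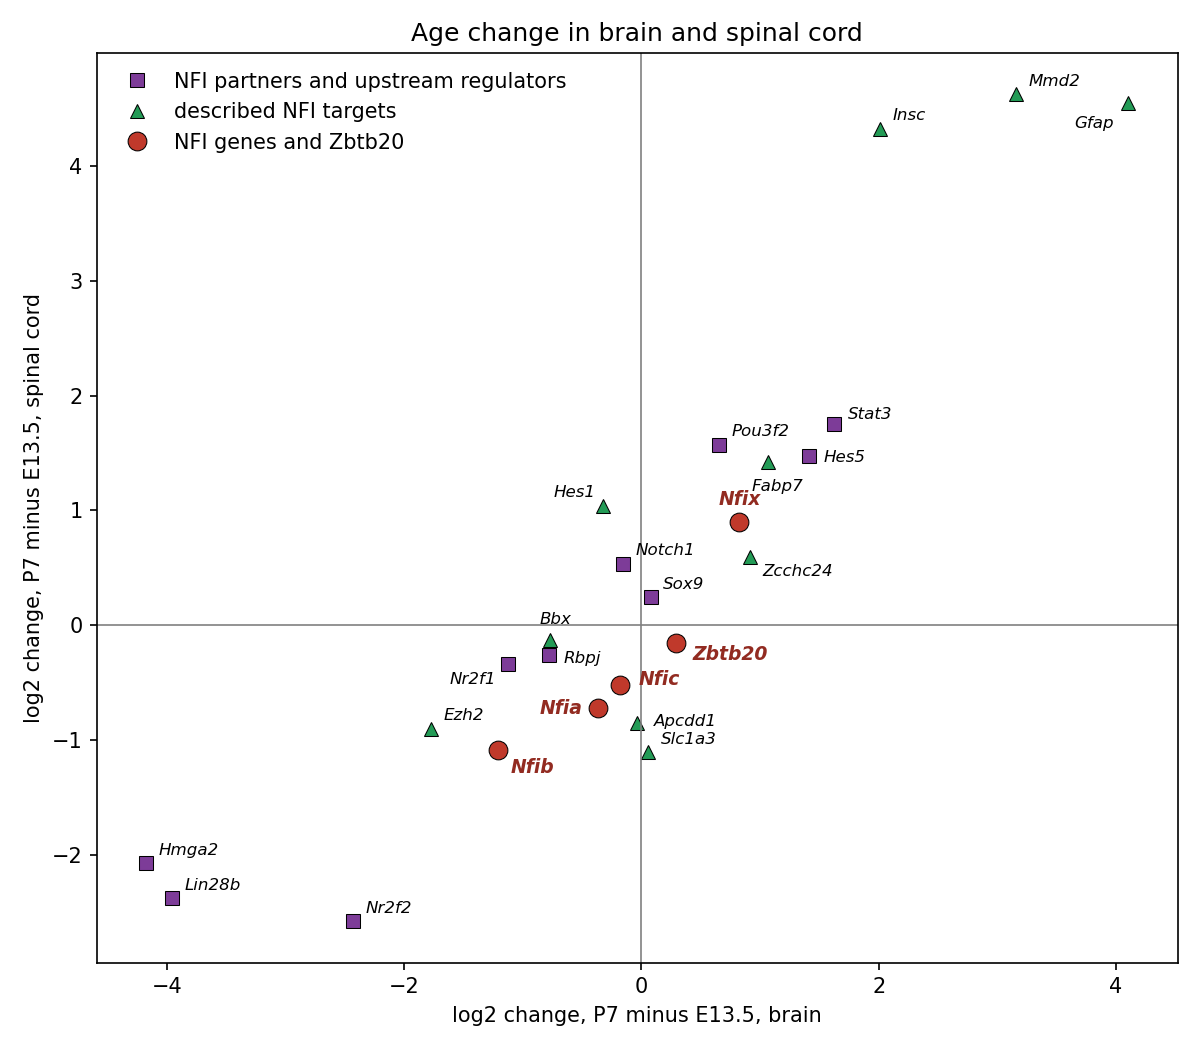
Age change (log2, P7 minus E13.5) in brain (horizontal) and spinal cord (vertical) for the 5 genes (circles), 10 partners and upstream regulators of NFI factors (squares) and 10 described targets (triangles). Mmd2, Gfap and Insc lie at the upper right, Hmga2, Lin28b and Nr2f2 at the lower left, and the 5 genes between them.

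Genes whose symbol starts with Zbtb and a number, Zbtb20 included, numbered 35 in the table, and 33 were tested. For age 1 was called higher and 2 lower in each region, where 27.7% (brain) and 35.1% (spinal cord) of all genes were called, and the medians of the 33 were -0.15 in brain and 0.07 in spinal cord, beside -0.19 and 0.12 over all genes. In brain these were Zbtb16 (1.03), Zbtb42 (-1.32) and Zbtb12 (-1.18), and in spinal cord Zbtb18 (1.29), Zbtb46 (-1.95) and Zbtb42 (-1.88). Between regions at E13.5 Zbtb18, a repressor known from cortical neurons, was higher in brain by 2.36 and Zbtb46 was lower (-1.12), and at P7 the differences of the 33 genes lay between -0.63 and 0.60, the upper value being that of Zbtb20 and the next that of Zbtb18 (0.37).

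Genes with the profile nearest to each of the 5 were found among 14158 tested genes by the root mean square difference of log2(CPM + 0.5) centred over the 12 libraries. All 12 libraries share age, dissociation and region as sources of likeness, so these are descriptions. Nearest to Nfib was Itsn1 (0.078 log2 units), whose mean in brain went from 234 ± 34.1 to 95.3 ± 1.10 CPM (SD, n = 3). Nearest to Nfia was Zfp995 (0.098), to Nfic Mroh1 (0.12) and to Nfix Tnfaip8l3 (0.16), a gene under 1 CPM in every group mean. Zbtb20 had the least close neighbours, Pnisr (0.20), Zeb1 (0.21) and Arntl2 (0.21).

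Little sequence was shared with other genes. No stretch of 100 bases in the transcripts of Nfia, Nfib and Nfic occurs in those of another gene. Of the 100-base windows of Nfix, 42 (0.557%) occur in G430095P16Rik, and of those of Zbtb20, 5 (0.0158%) occur in Gm9968, both on the opposite strand. G430095P16Rik and Gm9968 averaged 0.22 and 0.12 CPM. Nfia shares 4 exonic bases with E130114P18Rik on the opposite strand, which had between 6.58 and 23.8 CPM, and the sources used here do not say if reads were counted by strand.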

How the data were processed

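The deposited values are CPM (reads per gene scaled to a common library size) for 12 libraries, which the authors made from total RNA-seq reads. Per the study's methods and the submitters' processing notes, reads were aligned with STAR 2.5.0a and counted per GENCODE M8 gene with featureCounts 1.5.0-p1, and limma was used for testing. HISAT2 2.0.5 and StringTie 1.3.1c are also named. The deposited CPM are whole multiples of the worth of 1 read, so reads were recovered (100% of values whole within 0.01 reads). In 3 columns the authors' scaled size was below the read total, so these deposited values, otherwise made alike, are treated as a signal that sums past the CPM ceiling. 0 columns were left unused. Read totals and floors cover counting error only. Symbols and positions came from a GRCm38 annotation, for 46488 of 47069 identifiers.

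Genes reaching 0.7 CPM in 3 or more libraries (18319) were tested on log2(CPM + 0.5) with limma 3.58.1 (R 4.3.3, trend, 1 mean per group), with Benjamini-Hochberg adjustment over all of them in each of 5 comparisons. The 24 alternatives included other pseudocounts (0.1, 1), no filter, TMM and median-ratio rescaling, and limma-voom, edgeR 4.0.16 and DESeq2 1.42.0 on recovered reads. Single libraries were left out in turn. A fit with GC content and transcript length regressed out was added after seeing the data (99.5% of tested genes had both). The fit was tested on simulated data with 200 changed genes, for the age comparison in brain only. The simulated counts had no outlying library and no trend with GC content, so that test does not cover these features of the data. Fold changes on the log2(CPM + 0.5) scale understate those of low genes.

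The 5 genes and the lists were chosen with earlier results of these data known. Named were the 5 genes, listed genes called in an age or region comparison or singled out by role, the 2 largest Zbtb changes each way, overlapping genes, and the genes nearest in profile (up to 3 for each of the 5). 1 listed marker is not reported here and was left out of its list's sum.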

Additional observations from a re-analysis of the deposited data

How the results depend on the processing

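Of the 24 alternatives, none moved a count of all called genes by over 1.5 times. The number of the 5 genes called for age in brain was 1, and 2 with TMM or median-ratio rescaling, limma-voom or edgeR, with a range of 1 to 2 when single libraries were left out (2 without E13.5 brain replicate 1). In spinal cord it was 1, between 0 (without E13.5 spinal cord replicate 1) and 2 (without E13.5 spinal cord replicate 3), and 0 with GC content and transcript length regressed out, with or without a replicate block. In the region comparisons and the change of the region difference it was 0 under every alternative. The added or removed genes were Nfix and Nfib, which lay near the 2-fold line.

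Small values changed sign with the scaling. In the order TMM, median-ratio, limma-voom, edgeR and DESeq2, Nfic in brain was 0.0033, 0.0049, 0.013, 0.018 and 0.012, Nfix between regions at P7 was 0.16, 0.20, 0.19, 0.19 and 0.20 (0.20 with GC content and length regressed out), and the change of the region difference was 0.073, 0.21, 0.13, 0.14 and 0.21 for Nfib and 0.11, 0.25, 0.052, 0.17 and 0.25 for Nfix. At E13.5 the region difference of Nfia was -0.057 with median-ratio rescaling, -0.011 with limma-voom and -0.059 with DESeq2, that of Nfix -0.050 with median-ratio rescaling and -0.048 with DESeq2, and that of Zbtb20 -0.019 with DESeq2. Zbtb20 in spinal cord was 0.65 with GC content and length regressed out. With single libraries left out, region differences at E13.5 ran from -0.047 to 0.14 for Nfia, -0.043 to 0.36 for Nfib, -0.14 to 0.31 for Nfix and -0.18 to 0.41 for Zbtb20, Zbtb20 in spinal cord from -0.50 to 0.10, Nfix between regions at P7 from -0.10 to 0.021, and the change of the region difference from -0.33 to 0.082 for Nfib and -0.34 to 0.11 for Nfix. The cause was not tested.

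With a replicate block, 1, 1, 0, 0 and 0 of the 5 genes and 5074, 6438, 1595, 1212 and 2994 of all genes were called in the 5 comparisons, against 5068, 6436, 1595, 1213 and 2990 without it. Same-numbered brain and spinal cord libraries correlated at 0.08 to 0.41 at E13.5 and 0.01 to 0.04 at P7 in their deviations, and E13.5 brain replicate 2 correlated best with spinal cord replicate 1 (0.15), so the pairing rests on a number alone. With 3 libraries a group and 1 spread per gene shared by the 4 groups, region differences as small as those of Nfib and Nfix were not detectable by this fit. For Nfib the shared spread joined SDs of 99.8 and 84.5 CPM at E13.5 with 3.14 and 7.54 CPM at P7. The P7 intervals are therefore wider than the P7 libraries alone would give.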
